A study of Homo sapiens with 6 samples.

Results

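The genes described here are NFE2L2, which encodes the transcription factor NRF2, its repressor KEAP1, and 7 target genes of NRF2 that serve antioxidant defence, namely NQO1, HMOX1, GCLC, GCLM, TXNRD1, SRXN1 and SLC7A11. They are 9 of the 62438 genes in the deposited table. They were chosen by symbol, as a known pathway, and selected on normalized counts of these same libraries, in which GCLC was seen to be higher after knockdown. The libraries come from a breast cancer line labelled MDA-MB-453, in which N6AMT1 was silenced with a 10 nM siRNA (si-N6AMT1, 3 libraries) or which received 10 nM scrambled siRNA as control (si-CN, 3 libraries), and RNA was taken 48 h later. N6AMT1 encodes a methyltransferase that the study examined as a writer of the DNA mark 6mA. Both groups received an siRNA and the same transfection reagent, untransfected cells were not analysed here, and the knockdown was transient, partial and made in a single line.

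NRF2 is made at all times and is destroyed at once in unstressed cells, because KEAP1 holds it and hands it to a ubiquitin ligase built on CUL3. Oxidants and electrophiles modify cysteines of KEAP1, NRF2 then builds up, enters the nucleus, pairs with a small MAF protein and binds antioxidant response elements near its target genes. Control of NRF2 therefore lies largely in protein stability, which RNA-seq does not measure. The targets renew glutathione and thioredoxin, the main thiol buffers of the cell, and detoxify quinones and haem.

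The element was looked up in the DNA near the 9 genes, because these genes are known to respond together through it. The upstream search for its strict form was added once the data were known. The 9-base string TGACTCAGC, a strict form of the element that also contains the AP-1 string TGACTCA, was searched on both strands from 5000 bases upstream to 500 bases downstream of the start of each gene's reference transcript (GRCh37). It was found once each at GCLC, HMOX1 and NQO1, that is at 3 of 9 genes, and at 6.81% of 20162 protein-coding genes. The capitals below mark the string, each sequence is read 5′ to 3′ on the strand given, and 8 bases are shown on each side.
GCLC element, chr6:53413039-53413063, plus strand: cctccccgTGACTCAGCgctttgtg
HMOX1 element, chr22:35773141-35773165, minus strand: ggcactggTGACTCAGCaaaatcta
NQO1 element, chr16:69760902-69760926, minus strand: agtcacagTGACTCAGCagaatctg
The GCLC string began 3156 bases upstream of the reference start, counted on the strand of the gene, and lay in an intron of longer GCLC transcripts. The HMOX1 string began 3940 bases upstream, where the bases shown touched an exon of the lncRNA ENSG00000282041, and the NQO1 string began 455 bases upstream, where they touched an exon of the lncRNA NQO1-DT.

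Closer to the start sites, the looser core TGACNNNGC was searched on both strands of RefSeq promoter windows (GRCh38), which run from 250 bases before to 50 bases after a start. Windows were given for 7 of the 9 genes, 10 windows in all, and not for HMOX1 and SLC7A11. The core occurred at 3 genes, GCLM, KEAP1 and TXNRD1, in 4 of their windows, and in 13.3% of all 35116 windows. The strict string was found in 0 of the 10 windows counted above and in 0.561% of all windows. Of the 6 core matches at these 3 genes, those at GCLM and KEAP1 are shown. The matches not shown all lie at TXNRD1, at -99 and -8 bases from 1 start and at -102 bases from a further start.
GCLM, chr1:93909448-93909472, plus strand: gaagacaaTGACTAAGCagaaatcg
KEAP1, chr19:10502786-10502810, plus strand: ggtcaccaTGACTAAGCagagccgg
KEAP1, chr19:10502809-10502833, minus strand: ttttattgTGACACGGCgggcgccc
The GCLM match and the first KEAP1 match carry the same core letters, TGACTAAGC. These matches describe letters in the DNA, and binding of NRF2 was not measured.

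All 9 genes were expressed in every library, with between 381 and 7713 estimated counts. Per length, as estimated TPM in si-CN libraries, TXNRD1 was highest with 209.7 ± 1.2 TPM (SD, n = 3), followed by NFE2L2 with 110.8 ± 0.635 TPM and NQO1 with 42.5 ± 1.43 TPM. SRXN1 had 31.2 ± 1.61 TPM and HMOX1 30.01 ± 1.74 TPM, and the ranges of these neighbours overlapped. GCLC had 22.04 ± 0.538 TPM and SLC7A11 18.1 ± 0.481 TPM. KEAP1 with 16.9 ± 0.387 TPM and GCLM with 16.5 ± 0.440 TPM stood last, and their ranges overlapped as well. All other neighbours in this order were separated in all 3 si-CN libraries. With the longest transcript of each gene as its length, only KEAP1 and GCLM changed places, whereas NFE2L2 dropped to 67.4 TPM, so its level depends strongly on the transcript chosen.

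**Figure D1:**
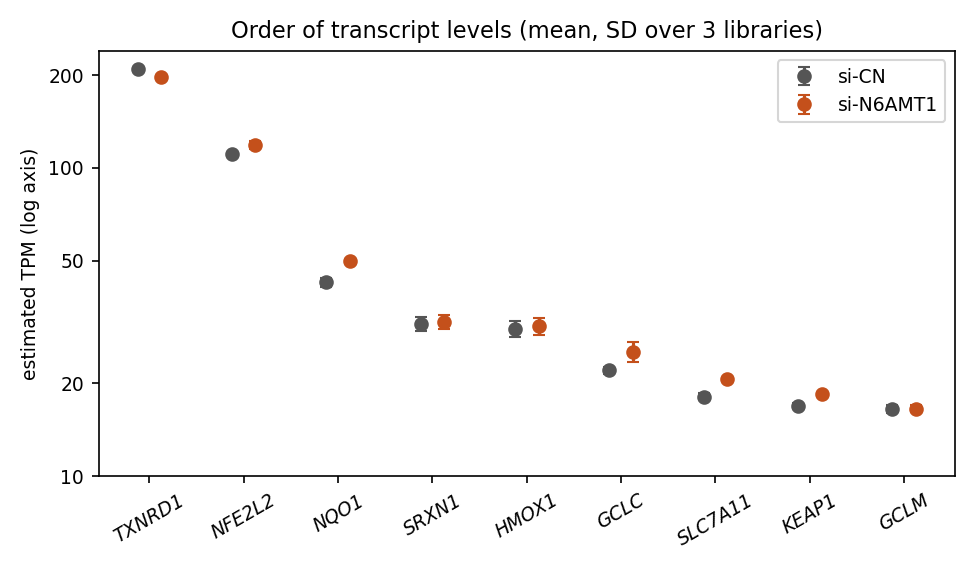
Estimated TPM (log axis) of the 9 genes in si-CN (grey) and si-N6AMT1 (orange) libraries, as mean and SD over 3 libraries. TXNRD1 and NFE2L2 stand above 100 TPM and the other genes between 16 and 50 TPM, in nearly the same order in both groups.

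Libraries of the 2 groups held 19739247 to 21289740 counts. N6AMT1, the target of the siRNA, had 6.65 to 6.93 CPM in si-CN and 2.93 to 3.53 CPM in si-N6AMT1 libraries (CPM, the share of a library's counts, scaled by TMM and given per 1000000). Library pairs within a group differed by more than sampling noise (chi-square per degree of freedom 1.36 to 1.77), and all were kept. This does not show that they came from separate cultures. The common coefficient of variation that edgeR estimated within groups, beyond sampling noise, was only 1.85%. At such a spread, small differences can pass a test. Markers were mixed with respect to the label of the cells. The luminal markers KRT8, KRT18, EPCAM, XBP1 and ERBB2 had 599.9, 460.9, 316.4, 79.1 and 53.7 CPM on average in si-CN libraries and CDH1, GATA3 and FOXA1 under 10 CPM. The luminal keratin KRT19 was at 0.377 to 0.611 CPM, whereas the basal and mesenchymal genes KRT5, KRT17 and VIM had 768.2, 2848 and 631.8 CPM on average in si-CN. Of 10 luminal markers 9 were tested, of which CDH1, KRT8 and KRT18 were higher and EPCAM was lower in si-N6AMT1. These are 33.3% and 11.1%, beside 9.78% and 11.5% of all tested genes. The summed level of the luminal markers was 1511 to 1552 CPM in si-CN and 1567 to 1588 CPM in si-N6AMT1 libraries, without overlap. Taken singly, 34.9% of all tested genes did not overlap between the groups. Of 10 basal, mesenchymal and other markers 7 were tested, of which KRT5, KRT14 and ZEB1 were higher and 0 lower. These are 42.9% and 0%, beside 9.78% and 11.5% of all tested genes. The sums of this list overlapped, with 4472 to 4566 CPM in si-CN and 4512 to 4601 CPM in si-N6AMT1. Any part of these marker differences in the results below was not tested.

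After transfection of si-N6AMT1, NQO1, GCLC, SLC7A11 and NFE2L2 were higher, TXNRD1 was lower, and KEAP1, GCLM, SRXN1 and HMOX1 were not called. Differences were small, from a fall of TXNRD1 by 5.92% to a rise of NQO1 by 17.7%. A gene is said to be called here when edgeR's quasi-likelihood test, fitted across 17320 genes, gave a Benjamini-Hochberg FDR under 0.05. Because the genes were listed with this comparison known, their values and calls are a description and no p is given for them. Of the 9 genes, 4 were called higher, where 9.78% of all tested genes were, and 1 was called lower, where 11.5% were. In 6 of the 9 genes the groups of libraries did not overlap, 5 higher and 1 lower, where 34.9% of all tested genes did not overlap (16.8% higher, 18% lower). The median log2 fold change was 0.10 for the 9 genes and 0.0039 for all tested genes.

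**Figure D2:**
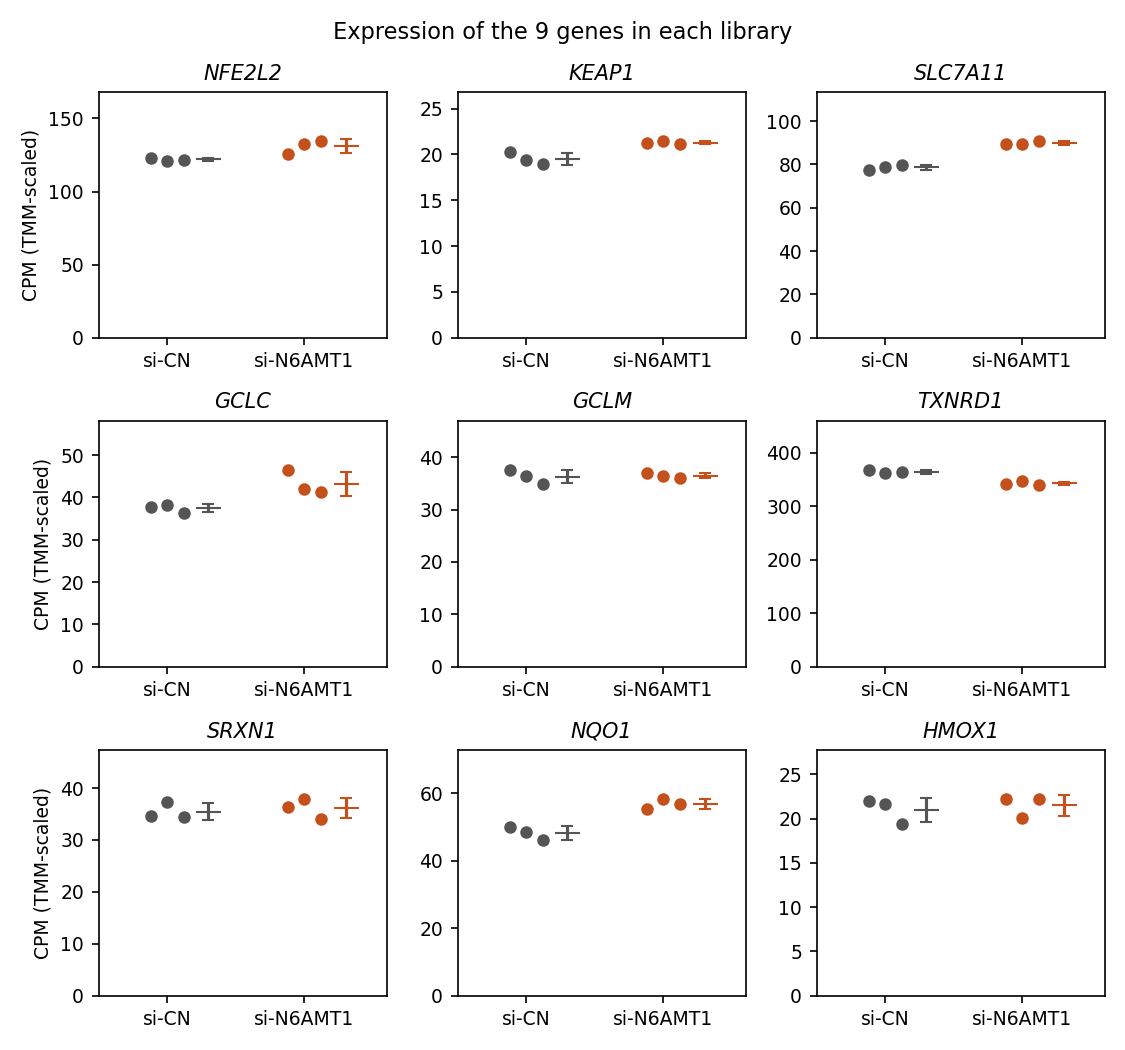
TMM-scaled CPM of each gene in each library, with points for the 3 si-CN (grey) and 3 si-N6AMT1 (orange) libraries and bars for mean and SD. All axes start at 0, and the groups overlap in the panels of GCLM, SRXN1 and HMOX1 alone.

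NFE2L2 (chr2:178083395-178257484, minus strand, GRCh37), the activator, had 123.2, 120.8 and 121.8 CPM in si-CN and 125.4, 132.6 and 134.5 CPM in si-N6AMT1 libraries (replicates 1 to 3). Every si-N6AMT1 library was above every si-CN library, although replicate 1 was only slightly so. The means were 121.9 ± 1.23 and 130.8 ± 4.79 CPM (SD, n = 3), a log2 fold change of 0.10 (standard error 0.0288). NFE2L2 was no longer called when si-N6AMT1 replicate 2 or 3 was left out, with log2 fold changes of 0.093 and 0.082, nor by DESeq2. KEAP1 (chr19:10596801-10614234, minus strand), the adaptor that holds NRF2, had 20.2, 19.3 and 18.9 CPM in si-CN and 21.3, 21.5 and 21.2 CPM in si-N6AMT1 libraries. Its groups did not overlap either, but the log2 fold change of 0.13 (standard error 0.0575) was not called. The ratio of NFE2L2 to KEAP1 in estimated TPM was 6.39 to 6.75 in si-CN and 6.18 to 6.66 in si-N6AMT1 libraries, and these ranges overlapped.

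SLC7A11 (chr4:139085251-139163503, minus strand) encodes the cystine transporter that brings in the limiting precursor of glutathione. It had 77.4, 78.8 and 79.7 CPM in si-CN and 89.4, 89.6 and 90.7 CPM in si-N6AMT1 libraries. All si-N6AMT1 libraries were higher, and the log2 fold change of 0.19 (standard error 0.0299) was the largest of the 9 genes relative to its error. The antisense lncRNA SLC7A11-AS1 overlaps 865 bases of its reference exons and had 1.67 and 2.40 CPM on average in si-CN and si-N6AMT1, a difference of under 1 CPM beside one of over 11 CPM for SLC7A11. If strand was not used in counting, reads of the pair cannot be told apart. SLC3A2, the heavy chain that carries SLC7A11 to the membrane, had 435.9 ± 4.98 and 419.1 ± 5.66 CPM (SD, n = 3) and was not called (log2 fold change -0.057, SE 0.0213, edgeR FDR = 0.0635). It was called lower by limma-voom (FDR = 0.0411), in the fit with the replicate block and a GC correction (FDR = 0.0182) and without si-N6AMT1 replicate 1 (FDR = 0.0455).

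Glutamate-cysteine ligase makes the first and rate-limiting step of glutathione synthesis from a catalytic subunit, GCLC, and a modifier subunit, GCLM. GCLC (chr6:53362139-53481768, minus strand) had 37.8, 38.3 and 36.4 CPM in si-CN and 46.5, 41.9 and 41.4 CPM in si-N6AMT1 libraries. All si-N6AMT1 libraries were higher, replicate 1 most of all, and the log2 fold change was 0.20 (standard error 0.0469). Without si-N6AMT1 replicate 1 it was 0.15, the lowest value with any library left out, and GCLC was still called. GCLM (chr1:94350755-94375012, minus strand) had 37.5, 36.5 and 34.9 CPM in si-CN and 37.1, 36.3 and 36.0 CPM in si-N6AMT1 libraries. The groups of GCLM overlapped, and its log2 fold change was 0.0078 (standard error 0.0437). The ratio of GCLC to GCLM in estimated TPM was 1.30, 1.35 and 1.35 in si-CN and 1.62, 1.49 and 1.48 in si-N6AMT1 libraries, without overlap.

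TXNRD1 (chr12:104609557-104744085, plus strand), the cytosolic thioredoxin reductase, had 367.4, 361.4 and 363.7 CPM in si-CN and 341.5, 346.5 and 339.7 CPM in si-N6AMT1 libraries. It was lower in every si-N6AMT1 library, opposite in direction to the other called genes, and its log2 fold change was -0.088 (standard error 0.0214). The call of TXNRD1 was lost, with a log2 fold change of -0.067, in the fit with the replicate block and a GC correction together. SRXN1 (chr20:627259-633844, minus strand), a sulfiredoxin that restores oxidised peroxiredoxins, had 34.6, 37.3 and 34.5 CPM in si-CN and 36.4, 37.9 and 34.0 CPM in si-N6AMT1 libraries. The si-N6AMT1 values spanned those of si-CN, and the log2 fold change was 0.025 (standard error 0.0486). A further protein-coding gene on the same strand, ENSG00000270299, shares 2292 bases of the SRXN1 reference exons and had 0.440 CPM in si-CN, so a share of SRXN1 counts may be assigned to it.

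NQO1 (chr16:69740899-69760571, minus strand), the quinone reductase often used to read NRF2 activity, had 50.1, 48.6 and 46.0 CPM in si-CN and 55.2, 58.2 and 56.7 CPM in si-N6AMT1 libraries. This was the greatest change of the 9 genes, with no overlap, and the log2 fold change of 0.24 (standard error 0.0397) ran from 0.20 to 0.26 with each library left out. HMOX1 (chr22:35776354-35790207, plus strand), the inducible haem oxygenase, had 21.95, 21.6 and 19.4 CPM in si-CN and 22.1, 20.1 and 22.2 CPM in si-N6AMT1 libraries. Its groups overlapped and its log2 fold change was 0.035 (standard error 0.0631), with the widest error of the 9 genes. Of the 3 genes with the strict element, GCLC and NQO1 were called higher and HMOX1 was not. SLC7A11 and NFE2L2, where the strict element was not found, were called higher as well. Of the 3 genes with a core match near the start, TXNRD1 was called lower and GCLM and KEAP1 were not called. A link between these elements and the calls was not tested.

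**Figure D3:**
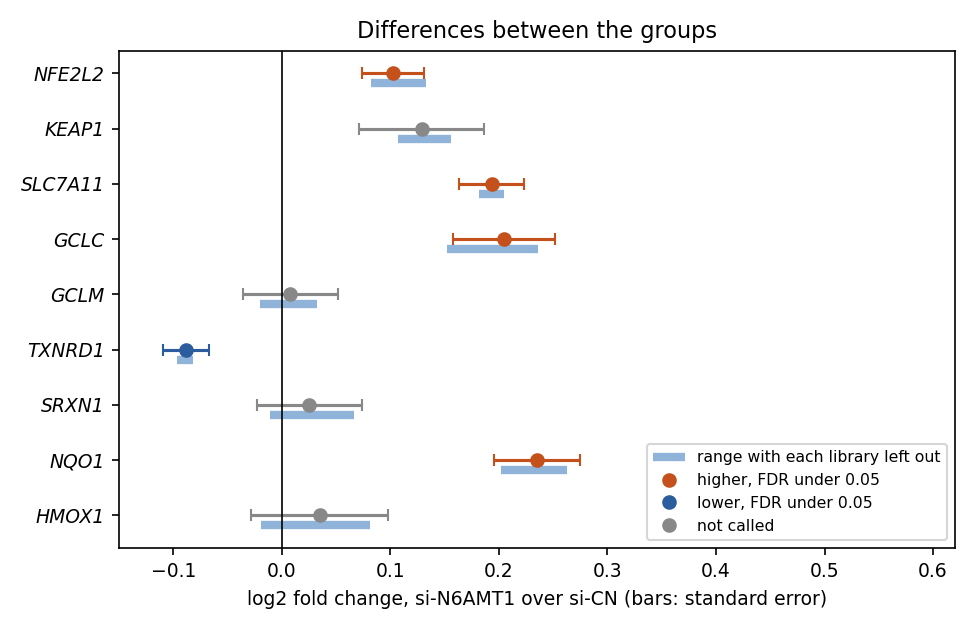
Log2 fold change of si-N6AMT1 over si-CN with its standard error (points and thin bars) and the range with each library left out in turn (thick bars). NQO1, GCLC and SLC7A11 lie near 0.2, NFE2L2 and KEAP1 near 0.1, and TXNRD1 is the only gene whose whole range lies below 0.

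Other genes of the pathway were taken from lists written by hand from general knowledge, with earlier results of these data known. Shares and FDR values of the listed genes are therefore a description as well. Among further NRF2 targets, 37 of 38 listed genes were found and tested, of which 8 were higher (21.6%, against 9.78% of all tested genes) and 4 lower (10.8%, against 11.5%). Their median log2 fold change was -0.0073, against 0.0039 for all tested genes. AKR1C1 and AKR1C2, aldo-keto reductases that reduce steroids and lipid aldehydes, rose most, AKR1C1 from 39.3 ± 2.04 to 57.5 ± 2.42 CPM (SD, n = 3), a log2 fold change of 0.55 (standard error 0.0438) with an edgeR FDR of 3.12e-09, and AKR1C2 from 17.6 ± 0.842 to 26.7 ± 1.53 CPM (log2 fold change 0.60, FDR = 1.40e-07). These paralogs are nearly identical, so counts may have been divided between them. AKR1C3 had a log2 fold change of 0.15 (FDR = 0.122) and was called only without si-N6AMT1 replicate 1 (FDR = 0.0346). ABCC3, an exporter of conjugates, and TRIM16, a ubiquitin ligase, rose as well, with log2 fold changes of 0.27 (FDR = 3.22e-07) and 0.26 (FDR = 0.000180). Named after their values were seen, the ferritin genes FTH1 and FTL, which store iron, and the thiol proteins PRDX1 and TXN made up the other called rises, with log2 fold changes of 0.24 (FDR = 3.02e-08), 0.23 (FDR = 3.61e-08), 0.14 (FDR = 7.17e-05) and 0.11 (FDR = 0.00264). All of these have processed pseudogenes that may take or give counts.

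Among the 4 that fell was GSR, the glutathione reductase, from 48.9 ± 0.785 to 40.2 ± 1.37 CPM (SD, n = 3), a log2 fold change of -0.28 (standard error 0.0403) with an edgeR FDR of 1.42e-05. NECTIN3, an adhesion molecule that is on the list but is not an established NRF2 target, had a log2 fold change of -0.30 (FDR = 0.00186). Without it, 3 listed targets fell. FECH and BLVRA, enzymes that make haem and reduce biliverdin, were named after their values were seen and had log2 fold changes of -0.25 (FDR = 0.0207) and -0.14 (FDR = 0.0419). Both calls were lost under DESeq2, FECH also with the replicate block and GC correction or without si-CN replicate 3 or si-N6AMT1 replicate 2 or 3 (FDR = 0.0522 to 0.111), and BLVRA also under limma-voom or without si-CN replicate 1 or 2 or si-N6AMT1 replicate 1 or 3 (FDR = 0.0505 to 0.205). Of the pentose phosphate route that supplies NADPH, PGD, TALDO1 and TKT were not called, with log2 fold changes of -0.027 for PGD (FDR = 0.607), 0.0023 for TALDO1 (FDR = 0.973) and 0.038 for TKT (FDR = 0.223).

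Of 18 regulators of NRF2, all tested, 6 were higher and 5 lower, with a median log2 fold change of -0.0039. These are 33.3% and 27.8%, beside 9.78% and 11.5% of all tested genes. SQSTM1, the autophagy receptor p62 that draws KEAP1 away from NRF2 and is itself a target, rose from 436.9 ± 3.88 to 506.9 ± 8.21 CPM (SD, n = 3), a log2 fold change of 0.21 (standard error 0.0212) with an edgeR FDR of 9.93e-08. Of the KEAP1 ligase, RBX1 rose (log2 fold change 0.23, FDR = 0.000873), whereas the scaffold CUL3 fell (log2 fold change -0.11, standard error 0.0367, FDR = 0.0306). CUL3 was not called by DESeq2, with the replicate block and GC correction, or without any of 4 of the libraries, si-CN replicates 1 and 3 and si-N6AMT1 replicates 1 and 2, where its FDR ran from 0.0642 to 0.242. BTRC, which serves the KEAP1-independent route of NRF2 decay, fell (log2 fold change -0.22, FDR = 0.0198), and this call was lost by DESeq2 and without si-CN replicate 1 or 3 or si-N6AMT1 replicate 2 or 3, with FDR from 0.0516 to 0.134. Of the small MAF partners, MAFK and MAFF fell (log2 fold changes -0.17 and -0.16, FDR = 0.000258 and 0.000844), the latter named after its values were seen, and MAFG did not pass (log2 fold change 0.0058, FDR = 0.932). BACH1, which competes with NRF2 at HMOX1, had 234.3 ± 2.85 and 231.0 ± 4.97 CPM (log2 fold change -0.021, FDR = 0.602). Of the NRF2 relatives, NFE2 and NFE2L3 rose (log2 fold changes 0.49 and 0.19, FDR = 0.00121 and 0.00211), and NFE2L1 did not pass (log2 fold change 0.0069, FDR = 0.883). The other called regulators were named after their values were seen. SYVN1 and GSK3B rose (log2 fold changes 0.12 and 0.075, FDR = 0.0343 and 0.0388), and PGAM5 fell (log2 fold change -0.10, FDR = 0.0465). These calls were lost with no expression filter, where 4 regulators were higher and 4 lower.

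In glutathione metabolism, 23 of 24 listed genes were tested, with 3 higher and 3 lower and a median log2 fold change of -0.020. Each direction is 13% of the list, near the 9.78% and 11.5% of all tested genes. GGT1, which splits extracellular glutathione, rose most, by a log2 fold change of 0.35 (standard error 0.0973) with FDR = 0.0115, although its groups overlapped, it has near-identical copies, and it was not called by DESeq2 (FDR = 0.157) or without si-CN replicate 3 (FDR = 0.0830) or si-N6AMT1 replicate 3 (FDR = 0.108). MGST1, a microsomal glutathione transferase, rose (log2 fold change 0.20, FDR = 8.04e-06) and MGST3, of the same kind, fell (log2 fold change -0.13, FDR = 0.0108), except under DESeq2 (FDR = 0.0578) and without si-N6AMT1 replicate 3 (FDR = 0.0638). GLO1, which clears methylglyoxal with glutathione, fell from 208.3 ± 0.925 to 182.3 ± 2.61 CPM (log2 fold change -0.19, FDR = 2.07e-06), and GPX1 passed narrowly (log2 fold change 0.070, FDR = 0.0415). GPX1 lost its call with no expression filter, with the replicate block, under DESeq2 and without si-CN replicate 3 or si-N6AMT1 replicate 2 or 3, with FDR from 0.0803 to 0.199, and with the block and GC correction (FDR = 0.705). GSR, listed here too, is the third that fell.

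A further list, headed other antioxidant enzymes, gave 4 higher and 4 lower of 22 tested genes, 24 being listed. Its median log2 fold change was 0.033, and whether its genes are NRF2 targets was not checked. Each direction is 18.2% of the list, beside 9.78% higher and 11.5% lower of all tested genes. Of the sestrins, stress-induced regulators of nutrient signalling, SESN2 and SESN3 moved in opposite directions. SESN1 was not called (log2 fold change -0.11, edgeR FDR = 0.254). SESN3 fell from 22.7 ± 1.49 to 13.1 ± 0.503 CPM (SD, n = 3), a log2 fold change of -0.79 (standard error 0.0678) with an edgeR FDR of 1.01e-08, and SESN2 rose from 32.9 ± 1.02 to 43.99 ± 1.89 CPM (log2 fold change 0.42, standard error 0.0450, FDR = 2.97e-07). SELENOW and AIFM2 rose, with log2 fold changes of 0.24 (FDR = 6.07e-05) and 0.17 (FDR = 0.00683). HMOX2, the constitutive haem oxygenase, and NNT, a mitochondrial source of NADPH, fell, with log2 fold changes of -0.20 (FDR = 0.00102) and -0.17 (FDR = 0.0212). AIFM2 was not called by DESeq2 (FDR = 0.0625), nor was NNT, which also missed with the replicate block and GC correction and without si-CN replicate 2 or 3 or si-N6AMT1 replicate 1 (FDR = 0.0621 to 0.127). OXSR1, a kinase rather than an antioxidant enzyme, was the highest gene of this list that was not called, with a log2 fold change of 0.046 (FDR = 0.187).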

How the data were processed

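RNA-seq data of 6 libraries, 3 per siRNA, were analysed. After trimming with Trim Galore, the authors ran kallisto v0.46.0 on GENCODE transcripts (hg19) and summed its estimated counts per gene, and the deposited values are these estimated counts (expected counts) in whole numbers, without normalization. The strand option and the rounding are not given in the sources used here. Columns were matched to samples by name.

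Genes passing edgeR's expression filter (minimum count 10) were tested in R v4.3.3 with edgeR v4.0.16, TMM scaling, all 6 libraries and no covariate. The standard error of a log2 fold change was its size over the square root of F. At 19739247 to 21289740 counts per library, low genes carry wide errors. The labels do not say whether libraries came from separate cultures, so p-values measure the spread between these libraries. Symbols and positions came from GENCODE v44 on GRCh37 (62149 identifiers matched), and TPM was estimated from reference transcript lengths, since the table holds none. The fit was first tested on simulated data. SOD2 and TRIM16L were not matched to a protein-coding gene in the table.

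Members and lists were chosen with earlier results of these data known. Named genes were the 9 genes, N6AMT1, up to 6 called genes of each list with the largest change, the highest gene not called, CUL3, SQSTM1, BACH1 and MAFG, and the 3 genes with the profiles most like GCLC and NFE2L2. The search upstream for the strict element was added once the data were known. Alternatives were RLE factors, DESeq2 v1.42.0, voom from limma v3.58.1, other filters, mitochondrial genes left out, the replicate block with and without GC correction, longest transcripts, and each library left out.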

Additional observations from a re-analysis of the deposited data

How the results depend on the processing

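The log2 fold changes of NQO1, GCLC, SLC7A11, NFE2L2, KEAP1 and TXNRD1 kept their direction under all 14 alternatives, whereas those of HMOX1, GCLM and SRXN1 crossed 0. The median of the 9 genes stayed between 0.082 and 0.13. Calls of NQO1, GCLC and SLC7A11 held under all 14. NFE2L2 lost its call under DESeq2 and without si-N6AMT1 replicate 2 or 3, which left 3 genes called higher. No pairing by replicate number was seen. Deviations from the group means correlated at -0.042 to 0.010 for same-numbered libraries and at -0.012 to 0.049 for differently numbered ones. With so little spread within groups beyond sampling noise, this cannot exclude that libraries were prepared in pairs. With the replicate block alone, 4 of the 9 genes were called higher and 1 lower, and 1522 and 1804 of all genes. With the replicate block and GC correction, 0 of the 9 genes and 2 other antioxidant enzymes were called lower. DESeq2 called 955 genes higher and 1275 lower, against 1694 and 1993 with edgeR, with 1 glutathione gene higher, and 2 other NRF2 targets, 2 regulators and 2 other antioxidant enzymes lower. The cause of these differences was not tested. With each library left out, fewer samples gave 2 to 4 regulators lower, 1 to 3 glutathione genes higher and 2 to 4 other NRF2 targets lower. The longest transcripts raised the median level of the 9 genes in si-CN from 30.01 to 34.9 TPM. At this depth HMOX1 and KEAP1, with 381 to 455 counts per library, had standard errors of 0.0631 and 0.0575, so a difference of the size seen for NFE2L2 was not detectable in them.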

Other observations

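Over the 6 libraries, the genes with the profile most like that of GCLC, by the root mean square difference of centred log2 CPM, were LINC03080 (0.0204), CCDC68 (0.0254) and TNRC6A (0.0258), the last of which encodes a partner of Argonaute proteins. Their log2 fold changes were 0.22, 0.23 and 0.19. Nearest to NFE2L2 were SF3B6 (0.0119), a splicing factor, HM13 (0.0137), a signal peptide peptidase, and RAC1 (0.0146), a small GTPase that also supports NADPH oxidase, with log2 fold changes of 0.12, 0.11 and 0.11. With 6 libraries in 2 groups, these profiles share the difference between the groups.

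The 3′ UTRs of the reference transcripts were searched for the 7-base strings TTCACAT and TCACATA, which had been picked on fold changes of these libraries as marks of genes that were lower in si-N6AMT1. TTCACAT was found in GCLC, SLC7A11 and SRXN1, in each of them at 1 place, and at 2 places in GCLM, and TCACATA in none of the 9 genes. This makes 4 of 9 genes (44.4%), beside 22.2% of 13303 tested protein-coding genes, without matching for 3′ UTR length. Of these 4, GCLC and SLC7A11 were called higher, and GCLM and SRXN1 were not called. TXNRD1, which was called lower, had neither string. Because the strings were picked on these libraries, the matches are a description. The 3′ UTR of SLC7A11, at 7859 bases, was the longest of the 9.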
